A study of Mus musculus with 5 samples.

Results

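The genes described here are 10 transcripts of neutrophil granules and of the calgranulin pair: S100a8, S100a9, Retnlg, Wfdc17, Slpi, Ngp, Camp, Ltf, Lrg1 and Hdc. They were taken by symbol from the 32285 genes of a single-cell count matrix of mouse kidney, and all 10 were found. The study clamped the left renal pedicle of male C57BL/6J mice, for which no genetic change is given, and sampled kidneys after this unilateral ischemia-reperfusion (UIR), on day 1, day 3, day 14 or day 28, or after sham surgery without clamping. The labels list 1 sample for each of these 5 conditions and give 3 mice as the source of each. The study's methods speak of more matrices than the 5 libraries found here, so whether a library holds all 3 mice of a condition is not settled. The labels call the cell type of every sample a goblet cell, which the markers of the classes below did not show.

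The matrix held 5 libraries, told apart by a barcode suffix, with 82426945 to 139382799 unique molecular identifiers (UMIs, counted molecules) each. No label ties a suffix to a condition, so the libraries are named by number, no injury time is compared, and no test between conditions was possible. No other test was run. After cell calling, 57732 cells remained, with 8286 to 19036 per library and a median of 4605 UMIs. Classes were gated on fixed markers that include none of the 10 genes, and 30242 cells (52.4%) fell in 1 class. Library 3 stood apart, with 13546 of its 19036 cells passing no gate. A total of 353 cell barcodes occurred in at least 2 libraries.

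Neutrophils build their granules in waves during maturation in bone marrow. Primary granules are filled first, with myeloperoxidase and elastase. Specific granules follow and carry lactoferrin (Ltf), the cathelicidin precursor (Camp) and neutrophilic granule protein (Ngp). Gelatinase granules come last. The calgranulins S100a8 and S100a9 are calcium- and metal-binding proteins of the cytosol that pair into calprotectin and act on Toll-like receptor 4 once released. Slpi and Wfdc17 belong to the whey acidic protein (WAP) family, and Slpi inhibits neutrophil elastase. Retnlg is a resistin-like secreted protein. Lrg1 is a leucine-rich glycoprotein that modulates TGF-beta signalling in vessels, and Hdc makes histamine from histidine.

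S100a8 and S100a9 are neighbours on chromosome 3, separated by 22596 bases in GRCm38. Camp, Ngp and Ltf lie in this order on chromosome 9, with 0.570 Mb between the first pair and 0.596 Mb between the second. The windows of 250 bases before the transcript start (RefSeq, GRCm38.p6, 1 for each of the 10 genes) were searched on both strands for TTNNGCAA, a motif of C/EBP factors, and GGAAGT, a motif of PU.1. Both factor families are known regulators of granulocyte genes. The C/EBP letters were found in 5 of 10 genes (S100a9, Retnlg, Slpi, Ngp and Ltf), against 9.56% of all 32851 windows. The PU.1 letters were found in 4 of 10 (S100a8, S100a9, Slpi and Lrg1), against 19.7%. A match describes the letters and is not a binding site. The part of the window before the annotated transcripts is shown for the calgranulin pair, whose levels moved together, and for Ngp and Ltf. Ngp and Ltf shared a cell with Camp, whose window held neither motif and is not shown. Capitals mark the motif letters, read in the direction of the gene.
S100a8, chr3:90668821-90668977, plus strand: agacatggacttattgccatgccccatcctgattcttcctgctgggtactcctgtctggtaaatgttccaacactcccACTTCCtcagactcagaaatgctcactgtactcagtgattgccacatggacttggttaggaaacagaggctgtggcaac
S100a9, chr3:90695722-90695971, minus strand: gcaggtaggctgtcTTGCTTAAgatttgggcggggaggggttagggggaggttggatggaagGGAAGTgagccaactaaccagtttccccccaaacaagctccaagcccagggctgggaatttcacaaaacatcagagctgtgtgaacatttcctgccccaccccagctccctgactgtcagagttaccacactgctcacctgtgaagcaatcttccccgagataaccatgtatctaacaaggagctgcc
Ngp, chr9:110419558-110419746, plus strand: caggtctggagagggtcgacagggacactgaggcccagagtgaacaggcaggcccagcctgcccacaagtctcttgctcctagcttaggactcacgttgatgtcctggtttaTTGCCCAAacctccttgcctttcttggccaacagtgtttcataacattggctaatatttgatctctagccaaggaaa
Ltf, chr9:111019042-111019270, plus strand: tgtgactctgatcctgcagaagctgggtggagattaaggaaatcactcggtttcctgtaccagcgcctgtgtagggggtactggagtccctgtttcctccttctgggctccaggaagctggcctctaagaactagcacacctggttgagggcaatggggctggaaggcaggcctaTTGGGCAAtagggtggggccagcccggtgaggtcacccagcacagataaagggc
The S100a8 match ACTTCC is GGAAGT on the other strand, as is TTGCTTAA for TTNNGCAA in S100a9 and TTGCCCAA in Ngp. Ngp held another match from base -11 to base -4, in a stretch that another annotation counts as transcript and that is not shown.

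Neutrophils were gated on Csf3r, Cxcr2, Il1r2, Mmp9, Ly6g, Trem1, G0s2 and Acod1. They numbered 66, 596, 473, 203 and 2 in libraries 1 to 5 (1340 in all, median 1336 UMIs), so library 5 gave no neutrophil level. All 8 markers were detected, and their summed level was 7577 to 13220 CPM (UMIs of the gene for each 1e6 UMIs of the class) against 181 to 298 CPM in free RNA. Free RNA is the pool of barcodes with 10 to 100 UMIs in the same library. In library 3 this pool held 724850 UMIs in 48249 barcodes. The barcodes taken there as the ambient profile for cell calling held 12462905 UMIs, with up to 489 each. Free RNA of library 3 therefore leaves out the deeper of those barcodes. Summed fibroblast and pericyte markers ran from 27.6 to 36017 CPM in free RNA among libraries. Whether a level below free RNA is also below ambient RNA was not tested. Of the proximal tubule list, all 8 markers were detected in neutrophils at a summed 1704 to 3774 CPM, below the 4522 to 5032 CPM of free RNA. The 5 basophil and mast cell markers were at 0. The part of carried-over tubule RNA in the levels below was not tested.

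In neutrophils, 7 of the 10 genes were at least 2 times above free RNA in all 4 libraries, and among all genes tested 7.26% met this rule. The 7 were S100a8, S100a9, Retnlg, Wfdc17, Slpi, Lrg1 and Hdc. Ngp, Camp and Ltf were the exceptions, with 0 UMIs in the neutrophils of library 1. In cells of other classes 2 of the 10 passed the same rule, Wfdc17 in monocytes, macrophages and dendritic cells, and Slpi in monocytes. Of all genes tested, 8.07% passed in monocytes, 4.3% in macrophages and 20.2% in dendritic cells. The 10 genes together took 4.94% to 10.2% of all neutrophil UMIs and 0.00612% to 0.0625% of free RNA.

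**Figure D1:**
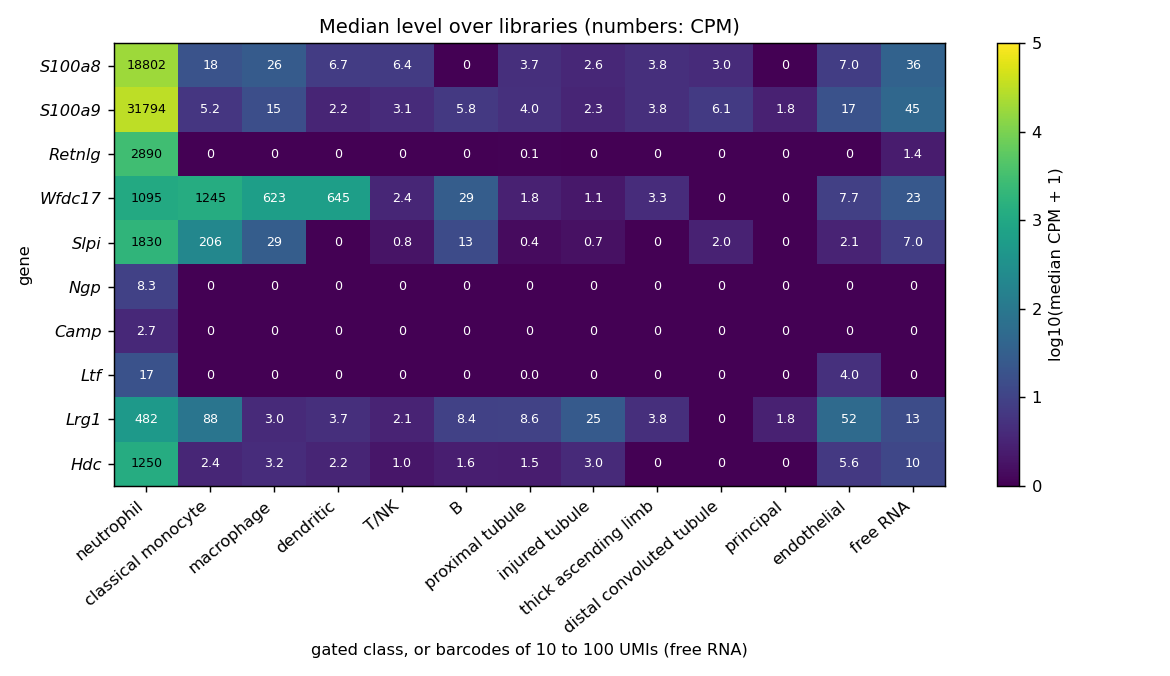
Rows are the 10 genes, columns are gated classes and free RNA, and each cell gives the median CPM over the libraries with at least 20 cells (colour on a log10 scale, a pseudocount of 1 added). Wfdc17 has a median of 1095 CPM in neutrophils and 1245 CPM in classical monocytes, while S100a9 has 31794 CPM in neutrophils and 44.7 CPM in free RNA.

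S100a8 was measured at 18897, 17592, 36920 and 18707 CPM in neutrophils of libraries 1 to 4, and at 11.8, 82.5, 265 and 36.3 CPM in free RNA. Library 3 was the highest in both. The neutrophil level was 139 to 1595 times that of free RNA, with a median log2 ratio of 8.37. S100a9 was at 32196, 31392, 50695 and 23857 CPM in neutrophils, again highest in library 3, and 220 to 1779 times above free RNA. A UMI of S100a8 was present in 88.1% to 98.5% of neutrophils. Among those of at least 1000 UMIs (28, 478, 427 and 134 cells in libraries 1 to 4), thinned to 1000, 84.9% to 98.1% had a UMI of it. T/NK cells, which should lack the gene, had one in 0.188% to 8.94% of cells in libraries 1 to 4 (0% to 4.93% thinned), at a median of 1747 UMIs. The pair accounted for 4.26% to 8.76% of all neutrophil UMIs.

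The calgranulins varied widely among neutrophils. The quartiles of S100a8 over the 1340 cells were 5614 and 45319 CPM around a median of 19648 CPM. For S100a9 the quartiles were 8174 and 69823 CPM. Cells high in one were high in the other, with Spearman correlations of 0.885, 0.923 and 0.850 in libraries 2, 3 and 4 (478, 427 and 134 cells thinned to equal depth). Slpi followed the pair more loosely (0.345 to 0.407 with S100a8), and Hdc loosely at most (0.164 to 0.252). In library 3, Retnlg (0.557) and Wfdc17 (0.563) followed S100a8 more closely than Slpi did, as did Wfdc17 in library 4 (0.431). These correlations are across cells that share a library, and cells are not replicates.

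Retnlg was at 2961, 1287, 6532 and 2818 CPM in neutrophils, lowest in library 2 and highest in library 3. Free RNA held 3, 14, 21 and 1 UMIs of it, and the log2 ratio in library 3 was 7.82 (7.20 to 8.51). Its UMIs were unevenly spread, since 41.9% of neutrophils had one and the top 1% of cells (14) held 18.1% of them. The share of neutrophils with a UMI ran from 27.9% in library 2 to 64.5% in library 3. T/NK cells had one in 0% to 1.66%. No other class was at 2 times free RNA for Retnlg in any library with at least 20 cells.

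Slpi was at 2247, 1838, 1821 and 1377 CPM in neutrophils and 69.5 to 975 times above free RNA. Hdc was at 1688, 1463, 695 and 1036 CPM, lowest in library 3, where S100a8, S100a9, Retnlg and Wfdc17 were at their highest. The Hdc interval in library 3 (643 to 749 CPM), which covers counting error only, lay below those of libraries 1, 2 and 4. Free RNA held 1 to 32 Hdc UMIs, and the log2 ratio was 5.65 to 7.14 in libraries 2 to 4 and 12.3 (9.82 to 17.6) in library 1, against 1 UMI. The markers of basophils and mast cells, the classical makers of histamine, were at 0 in these neutrophils. Hdc was spread evenly, with a UMI in 74.1% of neutrophils and 4.99% of its UMIs in the top 1% of cells.

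**Figure D2:**
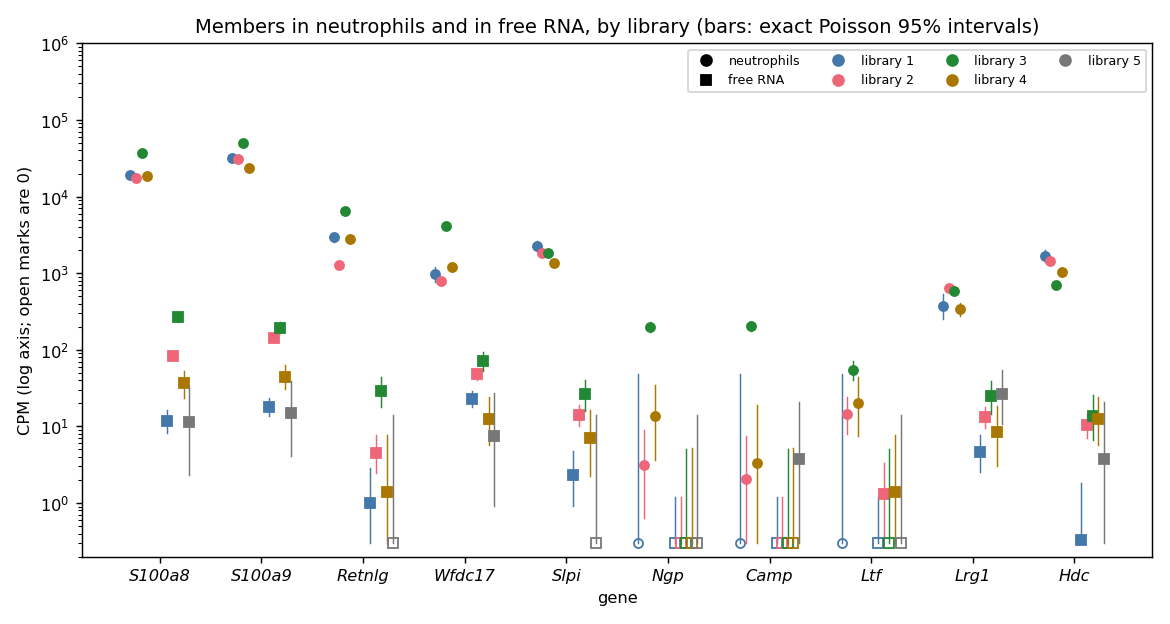
The vertical log axis gives CPM for each gene in neutrophils (circles, libraries 1 to 4) and free RNA (squares, libraries 1 to 5), with exact Poisson 95% intervals as bars and open marks for 0. The first 5 genes and the last pair separate from free RNA in each library, while Ngp, Camp and Ltf are at 0 in neutrophils of library 1 and reach 199.8, 203 and 53.8 CPM in library 3.

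Against classical monocytes, 6 of the 10 genes were at least 2 times higher in neutrophils in all 4 libraries (S100a8, S100a9, Retnlg, Slpi, Lrg1 and Hdc), and 1.94% of all genes tested were. Monocytes were gated on Ly6c2, Ccr2, F13a1, Vcan and Ms4a4c and numbered 27, 45, 271 and 31 in libraries 1 to 4. Slpi was 3.45 to 29.2 times higher in neutrophils, with the smallest ratio in library 3. Lrg1 was 2.18 (log2 1.12, interval 0.39 to 1.94) to 30.1 times higher where monocytes had a UMI. With at least 3 markers required, or with cells of several gates assigned to a class, Lrg1 no longer met the rule and the other 5 did.

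Wfdc17 set itself apart from the other genes. In neutrophils it was at 974, 781, 4147 and 1215 CPM, and in monocytes at 881, 1122, 1368 and 1780 CPM. The neutrophil to monocyte ratio was 1.11, 0.696, 3.03 and 0.683, so that only library 3 was above 2. Macrophages, gated on C1qa, C1qb, C1qc, Adgre1, Ms4a7 and Pf4, held it at 494, 623, 788, 1065 and 405 CPM in libraries 1 to 5. Dendritic cells had 408 and 883 CPM in the 2 libraries with at least 20 of them. Free RNA was at 7.6 to 71.7 CPM, and T/NK cells at a median of 2.4 CPM. Of its 15804 UMIs in cells, 32.9% were in neutrophils, 26.3% in macrophages and 14.2% in monocytes. In library 3, 84.8% of neutrophils had a Wfdc17 UMI, against 27.7% to 40.4% in the other 3.

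Outside neutrophils, Wfdc17 and Slpi passed the 2-fold rule over free RNA in at least 1 class. Of the 10 genes, 7 had at least 20 UMIs in each comparison below, except in dendritic cells, where 6 had. Monocytes passed for 2 (Wfdc17 and Slpi), where 8.07% of all genes did. Macrophages passed for Wfdc17 alone (4.3% of all genes), and so did dendritic cells (20.2%). The count was 0 of 10 in T/NK cells (6.04% of all genes), B cells (5.27%), proximal tubule (0.983%), injured tubule (2.93%), thick ascending limb (3.42%), distal convoluted tubule (4.5%), principal cells (6.54%) and endothelial cells (12.7%). These counts of 0, and the 1 in dendritic cells, are near the shares of all genes and do not set the 10 genes apart.

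Slpi in monocytes was at 76.9, 94.4, 527 and 318 CPM in libraries 1 to 4, against 2.3, 14.0, 26.2 and 7.0 CPM in free RNA. In library 3, 148 of 271 monocytes had a UMI of it. In library 1, 8 of the 11 UMIs were in 1 of 27 cells, and without the cell of most Slpi UMIs the levels of libraries 1 to 4 were 21.7, 58.8, 513 and 233 CPM. In the 20 monocytes of library 1 without a neutrophil marker UMI the level was 30.7 CPM. Slpi also appeared at 708 CPM in B cells of library 1, but 103 of the 135 UMIs were in 1 cell, and the level without it was 176 CPM. B cells of libraries 2 and 4 had none.

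The calgranulins in monocytes came from 1 library. Monocytes of library 3 had 2497 S100a8 UMIs and 756 S100a9 UMIs (2025 and 613 CPM). Those of libraries 1, 2 and 4 had 0, 2 and 3 UMIs of S100a8, and 0, 2 and 0 of S100a9. A UMI of S100a8 was present in 141 of the 271 monocytes of library 3, and one of S100a9 in 70. The monocytes and neutrophils of library 3 differed in the balance of the pair. There were 3.30 S100a8 UMIs per S100a9 UMI in monocytes (95% interval 3.04 to 3.59) and 0.728 (0.718 to 0.738) in neutrophils. Without the monocyte of most UMIs of the pair the ratio was 3.91 (3.57 to 4.30). In the 150 monocytes of library 3 without a single neutrophil marker UMI, a selection made after seeing the data, the levels were lower, at 1055 CPM for S100a8 and 172 CPM for S100a9. The ratio in these 150 cells was 6.14 (4.97 to 7.64), and without the cell of most UMIs it was 7.04.

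The ratio of the pair was below 1 in the neutrophils of each library, at 0.587, 0.560, 0.728 and 0.784. Libraries 1 and 2 had overlapping intervals, and libraries 3 and 4 did not overlap with them or with each other. These intervals treat each UMI as an independent draw and do not cover the spread among cells or animals, so a difference between libraries was not tested. In macrophages of library 2 the ratio was 2.24 (1.57 to 3.24), from 103 and 46 UMIs, of which 62 of the S100a8 UMIs were in 1 cell. Free RNA was at 0.655, 0.579, 1.36 and 0.813, with only library 3 above 1 beyond its interval (1.09 to 1.70).

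Tubule cells carried traces of the calgranulins below the level of free RNA. In proximal tubule cells of libraries 1 to 4, S100a8 was 9.73 to 40.7 times lower than in free RNA, and in library 5, where free RNA held 3 UMIs, the log2 ratio was -6.18 (-8.40 to -3.55). S100a9 was 5.29 to 41.3 times lower over the 5 libraries. Their S100a8 to S100a9 ratio was 0.584 (0.484 to 0.702) in library 2 and 0.692 (0.615 to 0.778) in library 3. Both intervals include the ratio of neutrophils in the same library. The library 2 interval also includes the ratio of free RNA (0.579), while that of library 3 lies below free RNA (1.36, interval 1.09 to 1.70). In libraries 1 and 4 the proximal tubule ratio was 0.333 (0.152 to 0.676) and 0.933 (0.736 to 1.18), intervals that include both neutrophils and free RNA. Thick ascending limb cells of library 3 were at 0.961 (0.762 to 1.21), above neutrophils and below free RNA. Injured tubule (0.719), distal convoluted tubule (0.789) and principal cells (0.872) of library 3 had intervals that include the neutrophil ratio. The source of these traces was not tested, and the free RNA values above are those of the pool of 10 to 100 UMIs only. A UMI of S100a8 was found in 9.87% of proximal tubule cells of library 3 (median 6764 UMIs) and in 1.995% after thinning.

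**Figure D3:**
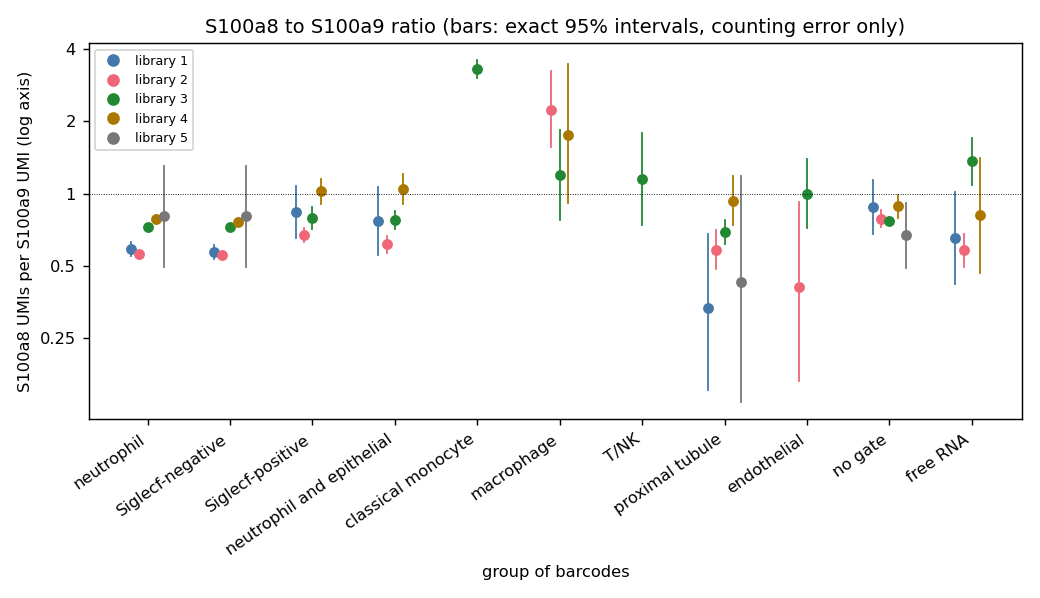
S100a8 UMIs per S100a9 UMI on a log axis, by group of barcodes and library, for groups with at least 20 UMIs of both together, with exact 95% intervals as bars. Monocytes of library 3 stand at 3.30 and neutrophils at 0.560 to 0.784 in libraries 1 to 4.

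Lrg1 had a smaller share of its UMIs in neutrophils than S100a8, S100a9, Retnlg, Wfdc17, Slpi and Hdc. It was at 377, 632, 587 and 338 CPM there and at 4.6, 13.3, 24.8 and 8.4 CPM in free RNA of the same libraries. Of its 5416 UMIs in cells, 24.1% were in neutrophils, 28.8% in proximal tubule cells, which are far more numerous, and 29.4% in cells without a gate. The level per proximal tubule UMI was low, at 4.9 to 20.4 CPM. Endothelial cells, gated on Pecam1, Kdr, Emcn, Flt1, Cdh5, Plvap, Ehd3 and Egfl7, had 72.7, 31.2 and 257 CPM in libraries 1 to 3. That was 15.8, 2.34 and 10.4 times free RNA. Library 5, with 20 endothelial cells and 2 UMIs, was at 16.9 CPM against 26.5 CPM in free RNA, so the rule was not met. Without library 5, or with free RNA taken from any of the 3 other ranges of barcodes, endothelial cells did pass for Lrg1. Injured tubule cells, gated on Havcr1, Krt20, Sox9, Itgb6, Dcdc2a and Fosl1, had 17.0, 31.0, 31.5 and 18.3 CPM, which was 1.27 to 3.69 times free RNA.

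By contrast, 84.0% of the S100a9 UMIs, 79.8% of S100a8, 86.5% of Retnlg, 65.4% of Slpi and 70.6% of Hdc in cells were in neutrophils, a class that made up 2.32% of all cells. A further 9.70% of S100a9 and 10.7% of S100a8 were in cells without a gate. The shares in classes depend on how many cells each gate admits.

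Ngp, Camp and Ltf, transcripts of specific granules, were found in few neutrophils. Ngp had 0, 3, 193 and 4 UMIs in neutrophils of libraries 1 to 4, Camp 0, 2, 196 and 1, and Ltf 0, 14, 52 and 6. Free RNA held no Ngp UMI in any library, 1 Camp UMI in library 5, and 5 Ltf UMIs in all. Ltf was not confined to neutrophils. Cells without a gate held 1, 21, 8 and 2 Ltf UMIs in libraries 1 to 4, those of library 2 in 16 cells. Endothelial cells of libraries 1 to 3 held 4, 3 and 2. A single neutrophil of library 3 carried 135 Ngp, 195 Camp and 47 Ltf UMIs, which is 377 of the 441 UMIs of the trio in that library. It also held 698 S100a8 and 1049 S100a9 UMIs of its 4461, the most of both in any neutrophil. Of the 1340 neutrophils, 53 had any UMI of the trio and that cell was the only one with UMIs of 2 of them or more. The top 1% of cells held 91.7% of the trio's 471 UMIs, and 59.6% once that cell was left out. For S100a8 the top 1% held 6.51%.

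Library 1 had 66 neutrophils and no UMI of the trio, and at the 3 UMIs taken as the limit of a count of 0 this allows a level of up to 39.0 CPM for each. Its 0 was therefore not distinguishable from the levels of 2.1 to 20.3 CPM in libraries 2 and 4. The class levels of library 3 rest largely on the cell described above, which held 195 of its 196 Camp UMIs, 135 of its 193 Ngp UMIs and 47 of its 52 Ltf UMIs.

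**Figure D4:**
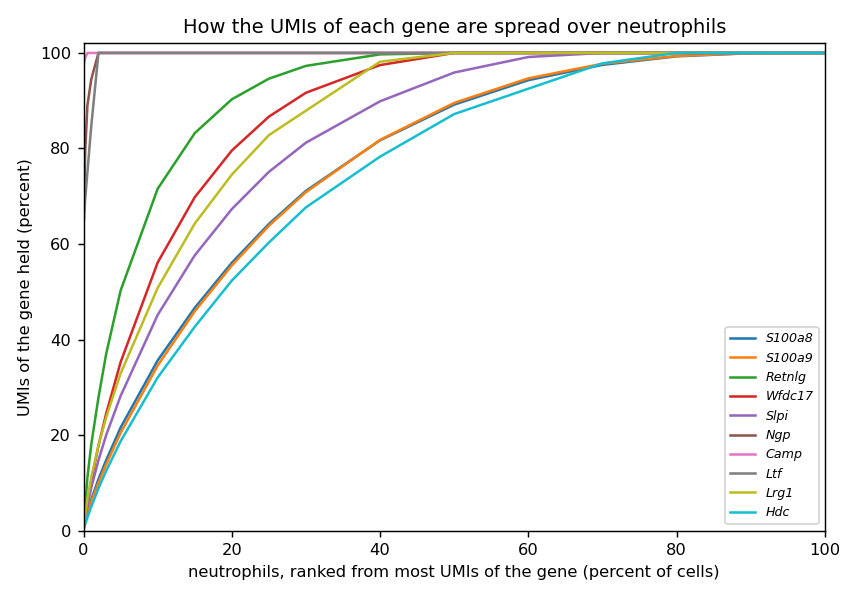
The horizontal axis ranks the 1340 neutrophils by UMIs of a gene, from the most, and the vertical axis gives the percent of that gene's UMIs held so far. Camp reaches 98.0% with 1 cell, whereas the first 14 cells hold 6.51% of S100a8.

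Besides that cell, a pair of others in library 3 had at least 10 UMIs of the trio (10 and 14, all of Ngp). These 3 cells, chosen by the trio, held several other late granule transcripts at higher levels than the other 470 neutrophils of library 3. The levels pool the UMIs of the 3 cells, which had 1931, 4461 and 2798 UMIs. Lcn2 (neutrophil gelatinase-associated lipocalin) was at 12078 against 1776 CPM, Pglyrp1 at 5441 against 920 CPM, Mmp8 (neutrophil collagenase) at 2176 against 254 CPM and Cd177 at 1088 against 35.5 CPM. Primary granule transcripts Mpo, Elane, Ctsg and Ms4a3 and the cycling genes Mki67 and Top2a were at 0 in the 3 cells, and Prtn3 had 1 UMI. Among the other specific and gelatinase granule genes, Adam8 (109 against 140 CPM) and Olfm4 (0 against 15.7 CPM) were lower. Of the gate markers, Ly6g was at 979 against 92.0 CPM, and Cxcr2 and Mmp9 were also higher. Trem1 (0 against 608 CPM), Acod1 (109 against 648 CPM), G0s2 (1741 against 3731 CPM), Csf3r (218 against 600 CPM) and Il1r2 (653 against 715 CPM) were lower.

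Lists of related genes were set beside the members in neutrophils, by the same rule over free RNA that 7.26% of the 11867 genes tested met. A gene needed at least 20 UMIs to be tested. Of the 5 primary granule genes, 1 had as many and 0 were called, and Mpo, Elane, Ctsg and Ms4a3 had no UMI in any neutrophil of libraries 1 to 4. Of 9 other specific and gelatinase granule genes, all tested, 6 were called: Lcn2, Cd177, Pglyrp1, Hp, Mmp8 and Adam8. Pglyrp1, a peptidoglycan recognition protein, ran from 444 to 963 CPM against at most 7.0 CPM in free RNA, and 60.2% of its UMIs were in neutrophils. Lcn2 ran from 300 to 1874 CPM, yet 5.13% of its UMIs were in neutrophils. Of 4 other S100 genes, all tested, only S100a11 was called (2744 to 4286 CPM). S100a4 was lower in neutrophils (3.4 to 74.5 CPM) than in monocytes (1714 to 2959 CPM), and the ranges did not overlap.

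In the WAP family, Wfdc21 was called and Wfdc2, Wfdc15b and Wfdc18 were not, with 3 of the 4 tested. Wfdc21 ran from 267 to 1105 CPM and had 72.6% of its UMIs in neutrophils. Of the 3 other resistin genes 2 were tested and 0 called. Of 4 genes of histamine breakdown and sensing 2 were tested, and Hnmt, which inactivates histamine, was called at 12.99 to 17.6 CPM, and Hrh4 had no UMI. The Hnmt call rests on 1 UMI in library 1, as does that of Cd177. Among 7 receptors and partners, of which 6 were tested, Tlr4, Fpr1 and Fpr2 were called, and Tlr4, the calprotectin receptor, was at 17.6 to 64.9 CPM. Of 4 granulocyte regulators 3 were tested, and only Cebpb was called, at 169 to 525 CPM. Cebpe, which drives specific granule genes in marrow, was at 0 to 15.5 CPM.

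Genes most like each member were sought over 53 points, each a class in a library, among 14060 genes. The points share libraries, depth and a few neutrophil points that carry most of the range. S100a8 and S100a9 were each other's nearest gene (r = 0.951). Retnlg was nearest to Stfa2l1 (0.969), a stefin, and to Cxcr2 (0.963), a gate marker. Wfdc17 was nearest to Pirb (0.942), Ccl6 (0.939) and Alox5ap (0.931). Slpi was nearest to Hp (0.880), and Hdc to Retnlg (0.910). Ngp and Camp were nearest to each other (0.972). Their highest point by far was neutrophils of library 3, where 1 cell held 135 of 193 Ngp UMIs and 195 of 196 Camp UMIs. Lrg1 had the lowest first value, 0.761 with Rnf144a.

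Neutrophils with a UMI of Siglecf, a lectin of a neutrophil state seen in injured tissue, numbered 75 of 596 in library 2 and 37 of 203 in library 4. In both libraries 4 of the 10 genes were at least 2 times lower in them (S100a9, Retnlg, Wfdc17 and Slpi), and 0.689% of all genes tested were. Of the 10, 8 had at least 20 UMIs. The study, from the same data, lists Siglecf as high in its "aged" neutrophil cluster. It lists S100a8, S100a9, Retnlg, Slpi and Lrg1 as high in its "fresh" cluster. The split is therefore not independent of those clusters. S100a9 was lower by 2.07 and 3.19 times in libraries 2 and 4, Wfdc17 by 3.00 and 3.22 times, and Slpi by 2.83 and 9.32 times. Retnlg had 2 UMIs in Siglecf-positive cells of library 4 against 833 in the rest, a log2 ratio of -6.88 (-9.93 to -5.02), and in library 2 the log2 ratio was -1.77 (-2.19 to -1.37). Hdc differed little, with log2 ratios of -0.40 (-0.66 to -0.15) and -0.19 (-0.62 to 0.22).

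Libraries 1 and 3 had too few Siglecf-positive neutrophils for the rule and differed from each other. The 12 of library 3 had S100a9 at 52548 CPM against 50664 CPM in the rest, Slpi at 2596 against 1808 CPM, and Retnlg at 4685 against 6563 CPM. The 5 of library 1 had S100a9 at 24625 against 32828 CPM, Slpi at 337 against 2406 CPM, Wfdc17 at 169 against 1041 CPM, and no Retnlg UMI against 3208 CPM. With libraries of at least 10 such cells included, the count was 0 of 10. With the gate of Csf3r, Trem1, G0s2 and Acod1 alone, or with cells of several gates assigned, and the minimum of 20 cells kept, it was 3, without S100a9. The median depths of cells with and without a Siglecf UMI were 1466 and 1314 UMIs in library 2 and 1306 and 1120 in library 4, and the part of depth was not tested.

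**Figure D5:**
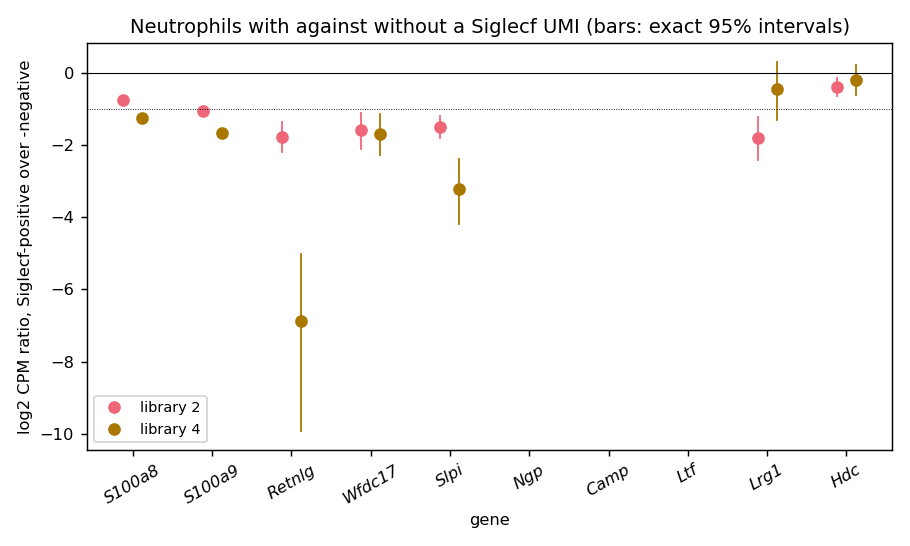
Log2 ratio of CPM in Siglecf-positive over Siglecf-negative neutrophils for each gene in libraries 2 and 4, with exact 95% intervals as bars and a dotted line at -1. Genes with under 20 UMIs in the pair of groups are not drawn, and Hdc lies near 0 at -0.40 and -0.19.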

How the data were processed

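Single-cell RNA-seq libraries were made from kidneys of a unilateral ischemia-reperfusion (UIR) model of AKI. Per the labels, Cell Ranger 6.0 and the mm10 build were used. The authors deposited 1 pooled matrix of UMI counts, not normalized, with all 10474594 barcodes and 32285 genes. Its 5 barcode suffixes, here called libraries 1 to 5, carry no condition in the sources used here. They therefore entered as 1 pooled sample, with values per library and no test and no p-value, and no time point was compared.

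Cells were called within each library by the Cell Ranger rule: barcodes over 10% of the 99th percentile of the top 3000, then barcodes of at least 500 UMIs against an ambient profile (ranks 45000 to 90000, 10000 simulations, adjusted p at most 0.01). At most 20000 barcodes per library were tested, deepest first. Library 3 reached this cap, so its lowest tested barcode had 661 UMIs, against 500 in the other libraries. Cells with under 200 genes or over 25% mitochondrial counts were removed, the study's own limits. This left 57732 cells of 319779237 UMIs. A cell passed the gate of a class with at least 2 of its markers, 3 marker UMIs and a Poisson tail of at most 0.0001 against free RNA, the pooled barcodes of 10 to 100 UMIs of the same library. A cell of one gate was given that class. Cells passing both tubule gates were put with the injured tubule. Among leukocytes, or within the distal nephron, the class with at least 2 times the marker UMIs of the next was taken. Other combinations were held apart. No doublet caller was run. No gene of the set marks a gate.

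UMIs were summed by class and library and given as CPM, the gene's UMIs for each 1e6 UMIs of that sum. A level was called above another when it was at least 2 times it, with the reference at no less than 3 UMIs, in every library with at least 20 cells of each class. Genes with at least 20 UMIs in the groups compared formed the background share. Intervals are at 95% (exact Poisson for levels, exact conditional binomial for ratios, Clopper-Pearson for shares) and cover counting error only. Shares of cells were also taken among cells of at least 1000 UMIs, each thinned to 1000 UMIs. Cells of fewer UMIs were left out of these thinned shares. The genes most like each member had the highest Pearson correlation of log2(CPM + 1) with it. Calling, gating and the scan over genes were tested on simulated data. Python 3.11.15, numpy 2.4.6, scipy 1.17.1, pandas 2.3.3 and numba 0.67.0 were used. The members, markers and gene lists were chosen with earlier results of these data known. Alternatives covered the calling, mitochondrial, depth and gate rules, the background barcodes, the fold, the cell minimum and leaving out each library.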

Additional observations from a re-analysis of the deposited data

How the results depend on the processing

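The 7 members above free RNA in neutrophils were called under every alternative, and leaving out library 1, whose neutrophils held few UMIs, added Ngp and Ltf (9 members). The count of members higher in neutrophils than in monocytes ran from 4 at a fold of 4 to 6, and that of members above free RNA in another class from 2 to 3. Lrg1 was the added gene there each time, in endothelial cells, in injured tubule without library 3, and in monocytes with at least 3 markers. The count of members lower in Siglecf-positive neutrophils, 4 as reported, ran from 0 to 5, with 5 without library 2 or library 4, 0 at a fold of 4 and 0 when libraries with at least 10 cells of each kind were used, which added library 3. The share of Ngp, Camp and Ltf UMIs in the top 1% of neutrophils was 52.8% with the gate of 4 markers, under which the cell of most such UMIs passed no gate, 100% in the top 5% of cells, and 59.6% without the cell of most such UMIs, an alternative chosen after seeing the data. Without a minimum of UMIs, 4.62% of all genes passed the fold over free RNA in neutrophils, against 7.26% with it. Median log2 ratios of single members to free RNA left their counting interval 16 times and stayed within it 96 times over the alternatives, and none changed sign. No paired comparison of conditions was possible because the libraries carry no condition or replicate number. Ratios between classes were taken within each library. For Ngp, Camp and Ltf, library 1 held 76997 neutrophil UMIs, where 3 UMIs are 39.0 CPM.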

Other observations

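Among 26663 cells that passed no gate, 196 had at least 1% of their UMIs on S100a8 and S100a9, a level that 1074 of the 1340 gated neutrophils reached. These 196 cells had a median of 1151.5 UMIs and held 66.6% of the S100a8 and S100a9 UMIs of all cells without a gate. They were picked by the genes described here, so their levels are a description and they were given no class. By library they numbered 5, 46, 120, 22 and 3.

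In library 2, 51 cells passed both the neutrophil gate and an epithelial gate, with a median of 10380 UMIs against 1325.5 in neutrophils of that library. All 7 members that were above free RNA in neutrophils had a lower CPM in these cells, with ratios between 0.0680 for Retnlg and 0.115 for Hdc. These ratios are per UMI of the class and not per cell. Hdc had 98 UMIs in the 51 cells and 1414 in the 596 neutrophils. Their S100a8 to S100a9 ratio was 0.613 (95% interval 0.564 to 0.668), against 0.560 (0.550 to 0.571) in neutrophils. Whether these barcodes held more than 1 cell was not tested.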
